A study of Mus musculus with 7 samples.

Results

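Transcripts of 10 genes of bone morphogenetic protein (BMP) signalling were read in whole liver of mice with and without Rbpj: the ligand genes Bmp2, Bmp4, Bmp6 and Bmp8b, the receptor genes Bmpr1a and Bmpr2, and the target genes Id1, Id2, Id3 and Id4. They were taken by the gene name printed on the array, and they are 10 of its 35666 named genes and transcripts. The array carries 11 probes for them, since Bmp4 has a pair of probes. The Rbpj-/- group consisted of 3 AlfpCre+ mice with floxed Rbpj on both chromosomes, which had cholestasis, and the Rbpj+/+ group of 4 AlfpCre- mice with the same floxed alleles and without cholestasis. All mice were untreated, on a C57BL/6J background and 4 weeks old, and each liver was hybridised to 1 array with 1 dye. AlfpCre is active in the liver from embryonic life, so cells of whole liver in whose lineage this promoter was never active would keep Rbpj. Animals are numbered within each genotype for naming only.

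BMPs are secreted ligands of the TGF-beta family. They bind a complex of type I receptors (such as the product of Bmpr1a) and type II receptors (such as that of Bmpr2), which phosphorylates the transcription factors Smad1, Smad5 and Smad9. Together with Smad4 these switch on target genes, among them the Id genes, whose products bind basic helix-loop-helix factors and keep them from DNA. In the liver, Bmp2 and Bmp6 come mainly from sinusoidal endothelial cells and raise hepcidin (Hamp), the hormone that limits iron uptake. RBPJ is the DNA-binding partner of Notch receptors.

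All values below are log2 intensities relative to the 75th percentile of their array, so a value of 0 is the intensity of a probe at that percentile. That percentile was between 57.5 and 103 intensity units on the Rbpj+/+ arrays and between 118 and 143 on the Rbpj-/- arrays. Rbpj itself, read by the brighter of its probes (mm9 chr5:54048503-54048562, + strand), had a level of 0.60 ± 0.34 (SD, n = 4) with Rbpj intact and of -0.54 ± 0.22 (SD, n = 3) after its deletion. It was lower in all 3 Rbpj-/- animals (log2 fold change -1.13, SE 0.24, limma adjusted p = 0.0115), and it was not established whether the probe lies in the deleted part. The log2 fold change of Rbpj was -0.66 with normexp background correction (adjusted p = 0.0174), and with dim probes tested as well the adjusted p was 0.108. All 8 hepatocyte markers were detected on every array. Rbpj+/+ animal 2 and Rbpj-/- animal 1 had brighter dim probes, with a median intensity of 18.7 and 29.6 against 4.99 to 7.75 on the other arrays. The Rbpj+/+ arrays lay in one row of the slide and the Rbpj-/- arrays in the other, so row and genotype cannot be told apart. In whole liver, fewer cells of a type and less RNA per cell cannot be told apart either.

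Among the ligands, Bmp4 was lower and Bmp6 and Bmp8b were higher in Rbpj-/- liver, while Bmp2 did not pass the test. Among the Id genes, Id2 was lower and Id4 higher, and neither Id1 nor Id3 passed. Neither receptor gene passed. In total 3 of the 10 genes rose, 2 fell and 5 did not pass at an adjusted p below 0.1. In the paper's test of these arrays, Bmp8b and Id4 passed its false discovery rate threshold, and Bmp4, Bmp6 and Id2 did not. The paper's log2 fold change for Bmp4 was also negative, but clearly smaller in size than the one given below. Over the 18755 genes tested, 14.6% rose and 19.5% fell, 34.2% in all, so calls in both directions were common in this comparison. Which direction prevailed depended on the scaling of the arrays: 2741 genes rose and 3665 fell as reported, against 3116 and 2847 after quantile normalization, 3397 and 3236 with the percentile of probes detected on all arrays, and 3100 and 2802 in the authors' matrix. For the 10 genes the median log2 fold change was 0.00, against -0.13 for all tested genes. The genotypes did not overlap for 3 of the 10 (Bmp4 lower, Bmp6 and Bmp8b higher), and for 36.5% of all genes tested, 15.4% with higher and 21.1% with lower values in Rbpj-/- liver. Bmp6, Bmp8b and Id4 were well above background in all animals of the Rbpj-/- group only, and entered the test through that group. Without both arrays with brighter dim probes, 2 of the 10 genes rose and 2 fell. When dim probes were tested along with the others, Bmp8b was the 1 gene of the 10 that passed (adjusted p = 0.0939).

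**Figure D1:**
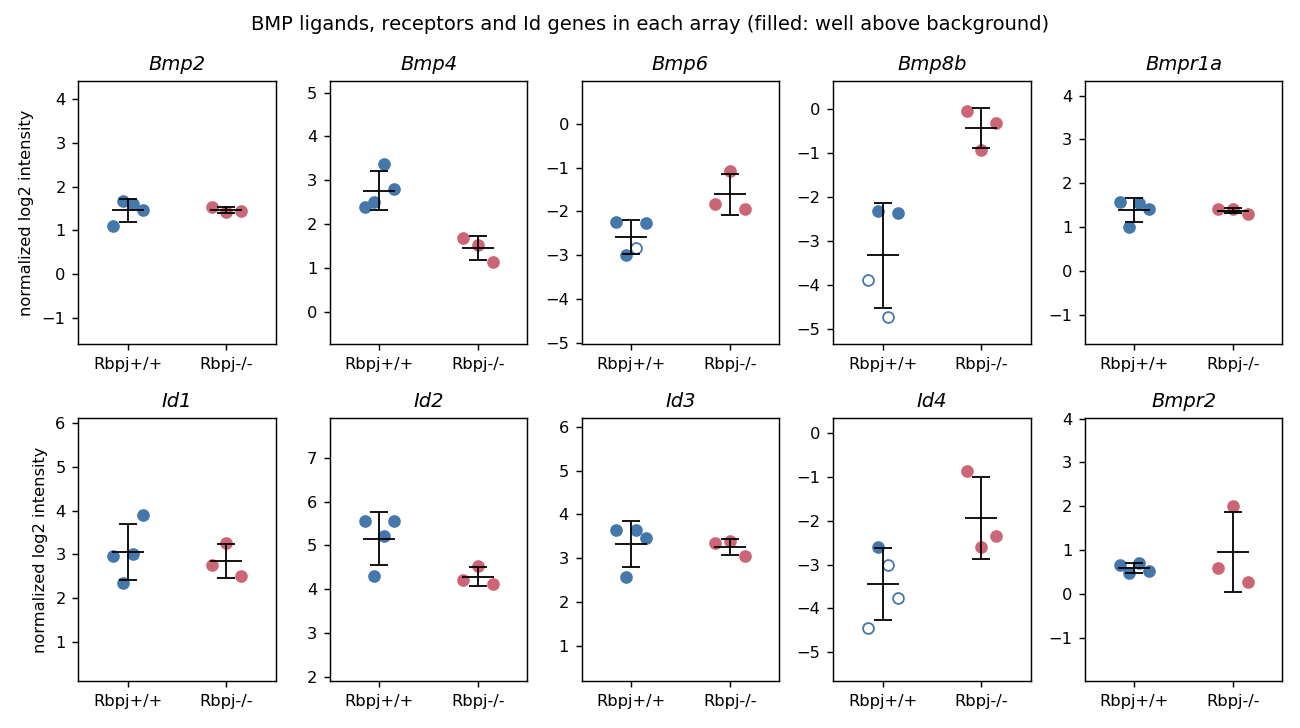
Normalized log2 intensity (y axis, each panel spanning the same number of log2 units) of the 10 genes in the 4 Rbpj+/+ and 3 Rbpj-/- animals. Points are animals, filled where the probe was well above background, and bars show the mean ± SD. The genotypes do not overlap for Bmp4, Bmp6 and Bmp8b, of which Bmp6 and Bmp8b entered the test through the Rbpj-/- group.

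Bmp4, a ligand that is active in early liver development, was read by a probe at mm9 chr14:47003391-47003450 on the - strand. Its level was 2.38, 2.50, 3.38 and 2.80 in the Rbpj+/+ animals and 1.69, 1.52 and 1.15 in the Rbpj-/- animals. All 3 Rbpj-/- animals were below all Rbpj+/+ animals. The difference was 2.48-fold (log2 fold change -1.31, SE 0.27, limma adjusted p = 0.0119; exact two-sided permutation p = 0.0286, the smallest that 4 against 3 animals allow). Before the arrays were scaled, the Bmp4 intensities were also apart, from 485 to 598 in Rbpj+/+ and from 261 to 461 in Rbpj-/- liver. Even the most distant of these readings were less than 2.48-fold apart, so part of the stated difference comes from the scaling. Unscaled intensities do not allow for the Rbpj-/- arrays being brighter at the scaling percentile. Bmp2, which did not pass, was also apart when unscaled, from 175 to 272 in Rbpj+/+ and from 320 to 416 in Rbpj-/- liver. Bmp4 passed with each animal left out and with both arrays of brighter dim probes left out. Its adjusted p was 0.1085 when dim probes were tested along with the others.

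The other Bmp4 probe starts 193 bases away and was not above background on any of the 7 arrays, so the fall of Bmp4 rests on 1 probe. Of its bases, 85.0% are A or T, against 61.7% in the brighter probe. The last 30 bases of both probes are shown because the probes of 1 gene gave such unlike readings.
Bmp4, brighter probe: tccctatagctggacttttatcttaaaaaa
Bmp4, probe not above background (mm9 chr14:47003198-47003257, - strand): gaaaataaaatgagtcattattttaaagat

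Bmp8b, a ligand known from germ cells and brown fat, had the largest rise of the 10 genes. Its level was -3.89, -2.33, -4.75 and -2.36 in the Rbpj+/+ animals, of which animals 1 and 3 were not well above background, and -0.04, -0.93 and -0.31 in the Rbpj-/- animals. The genotypes did not overlap. Taking the readings below background as measured, the log2 fold change was 2.91 (SE 0.58, limma adjusted p = 0.00975; exact permutation p = 0.0286). With normexp background correction it was 0.70 on the log2 scale and still passed (adjusted p = 0.0152). The size of the rise depended on this choice. Bmp8a, a close paralog, lies near Bmp8b on mouse chromosome 4, and cross-hybridisation between them was not tested. The Bmp8a probe gave values of -1.53 to -0.35 in Rbpj+/+ and -2.17 to -1.29 in Rbpj-/- liver (log2 fold change -0.71, adjusted p = 0.144).

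The genes whose pattern over the 7 arrays was closest to that of Bmp8b were Inpp5j, an inositol polyphosphate phosphatase, Sgo2a, a shugoshin of meiotic and mitotic centromeres, and Neurl3, a ubiquitin ligase. Likeness was the root mean square difference of the log2 values, each gene centred on its Rbpj+/+ mean, and was 0.29, 0.54 and 0.55 in this order. Their log2 fold changes were 3.13, 2.58 and 2.53, near that of Bmp8b because the selection was by closeness of these values. The Bmp8b readings of Rbpj+/+ animals 1 and 3 were not well above background and entered as measured. For Bmp4 the closest 3 were transcripts that have no gene symbol on the array.

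Bmp6, the main BMP of iron regulation, was dim in both genotypes. Its level was -2.23, -2.98, -2.83 and -2.26 in the Rbpj+/+ animals and -1.82, -1.07 and -1.95 in the Rbpj-/- animals. The groups did not overlap, though the gap between them was small. The rise was 1.95-fold (log2 fold change 0.96, SE 0.29, limma adjusted p = 0.0440; exact permutation p = 0.0286). It no longer passed without Rbpj+/+ animal 3 (log2 fold change 0.88, adjusted p = 0.114), without Rbpj-/- animal 2 (0.69, adjusted p = 0.162) or without both arrays of brighter dim probes (0.93, adjusted p = 0.105). With normexp background correction the log2 fold change was 0.04 (adjusted p = 0.855), and after quantile normalization it was 1.06 (adjusted p = 0.282).

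Bmp2, the other endothelial ligand, was well above background in every animal. Its level was 1.10, 1.67, 1.61 and 1.46 in Rbpj+/+ and 1.54, 1.43 and 1.44 in Rbpj-/- liver. All Rbpj-/- values lay within the Rbpj+/+ range (log2 fold change 0.01, SE 0.20, limma adjusted p = 0.970). Within an array, the level of Bmp2 minus that of Bmp4 was -1.28, -0.84, -1.77 and -1.34 in the Rbpj+/+ animals and -0.15, -0.09 and 0.29 in the Rbpj-/- animals. This difference moved by 1.32 (95% interval 0.67 to 1.98; exact permutation p = 0.0286, 0.0686 after adjustment over the 12 pairs of genes compared).

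The differences of Bmp4 from Bmp6 and from Bmp8b moved by -2.28 and -4.22, and that of Bmp2 from Bmp8b by -2.89, each with the same exact permutation p and the same adjusted value. The difference of Bmp2 from Bmp6 moved by -0.95 (95% interval -2.08 to 0.18; exact permutation adjusted p = 0.137). The difference of Bmp6 from Bmp8b moved by -1.94 (95% interval -4.13 to 0.25; exact permutation adjusted p = 0.137). Of the 4 ligand genes, Bmp2 and Bmp4 were well above background in all animals. Bmp6 and Bmp8b were not, and they entered the test through the group in which they were higher, so the differences that involve them are given as values and support no statement on the ligands.

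**Figure D2:**
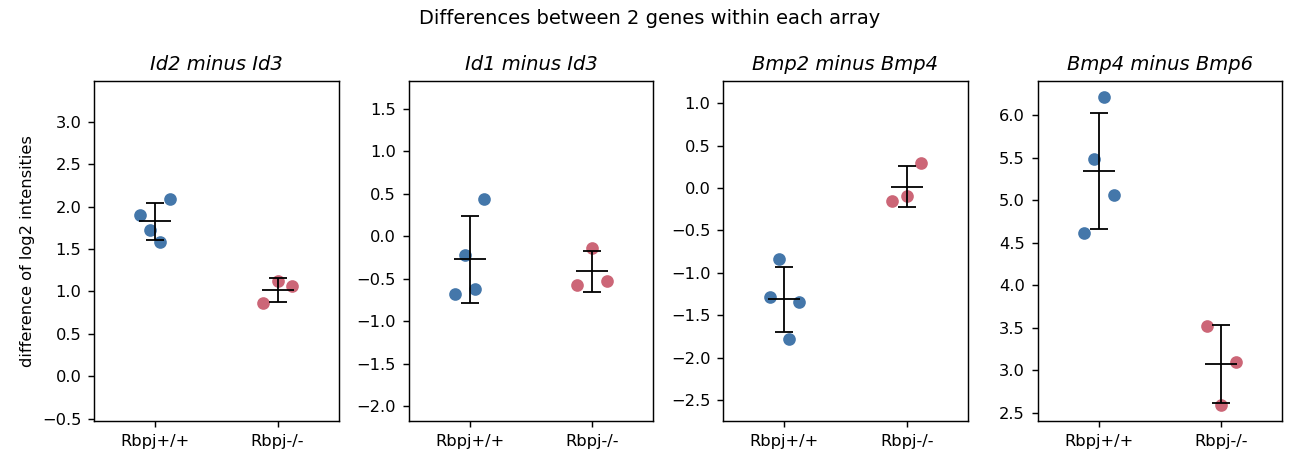
Difference of the log2 intensities of a pair of genes within each array (y axis), for 4 of the 12 pairs compared, in 4 Rbpj+/+ and 3 Rbpj-/- animals. Points are animals and bars show the mean ± SD. The genotypes are apart for Id2 minus Id3, Bmp2 minus Bmp4 and Bmp4 minus Bmp6, and overlap for Id1 minus Id3. Bmp6 entered the test through the group in which it was higher, so Bmp4 minus Bmp6 supports no statement on the ligands. The zero of each scale depends on the probes and gives no order of abundance.

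For the receptors, the genotypes did not differ by more than the spread between animals. Bmpr1a was 1.58, 1.01, 1.56 and 1.42 in Rbpj+/+ and 1.41, 1.42 and 1.31 in Rbpj-/- liver (log2 fold change -0.01, SE 0.20, limma adjusted p = 0.970). Bmpr2 was 0.65, 0.48, 0.70 and 0.54 in the Rbpj+/+ animals and 0.59, 2.0 and 0.27 in the Rbpj-/- animals. Rbpj-/- animal 2 alone stood above the others (log2 fold change 0.36, SE 0.37, adjusted p = 0.503). Without it the log2 fold change of Bmpr2 was -0.16.

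Id2, which also has roles in lymphoid cell development, was 5.56, 4.29, 5.22 and 5.55 in the Rbpj+/+ animals and 4.20, 4.53 and 4.12 in the Rbpj-/- animals. Rbpj+/+ animal 2 lay among the Rbpj-/- animals. The fall was 1.83-fold (log2 fold change -0.87, SE 0.32, limma adjusted p = 0.0794; exact permutation p = 0.0857). Id2 passed when Rbpj+/+ animal 2 was left out (log2 fold change -1.16, adjusted p = 0.00950), but not when any other animal was. Its adjusted p was 0.156, 0.162 and 0.169 without Rbpj+/+ animals 1, 3 and 4, and 0.181, 0.131 and 0.194 without Rbpj-/- animals 1, 2 and 3, with log2 fold changes of -0.99 to -0.74. With normexp background correction the log2 fold change was -0.57 (adjusted p = 0.145).

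Id1, the Id gene most often read as a sign of BMP activity in hepatocytes, was 2.98, 2.34, 3.02 and 3.89 in Rbpj+/+ and 2.76, 3.27 and 2.52 in Rbpj-/- liver. The groups overlapped over most of their range (log2 fold change -0.21, SE 0.35, limma adjusted p = 0.697). Id3 was 3.66, 2.57, 3.64 and 3.46 in Rbpj+/+ and 3.34, 3.40 and 3.05 in Rbpj-/- liver (log2 fold change -0.06, SE 0.29, adjusted p = 0.889). Rbpj+/+ animal 2 was the lowest of its group for Id1, Id2 and Id3.

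Differences between Id genes within an array remove what an animal's Id levels share. Id2 minus Id3 was 1.90, 1.73, 1.59 and 2.09 in the Rbpj+/+ animals and 0.86, 1.13 and 1.07 in the Rbpj-/- animals. Here the genotypes did not overlap, Rbpj+/+ animal 2 included. The difference moved by -0.81 (95% interval -1.18 to -0.43; exact permutation p = 0.0286, 0.0686 after adjustment over the 12 pairs). Id1 minus Id2 moved by 0.67 (95% interval 0.03 to 1.30; exact permutation p = 0.0571, adjusted 0.114). Id1 minus Id3 moved by -0.14 (95% interval -0.98 to 0.69; exact permutation p = 0.771), an interval that also holds shifts as large as that of Id2 minus Id3.

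Id4, which unlike the other Id genes is best known from neural and germ line cells, was dim. Its level was -4.45, -2.59, -3.02 and -3.76 in the Rbpj+/+ animals, of which animal 2 alone was well above background, and -0.86, -2.59 and -2.34 in the Rbpj-/- animals. The highest Rbpj-/- value was that of animal 1, and the highest Rbpj+/+ value that of animal 2, the arrays with brighter dim probes. Taking the 3 readings below background as measured, the log2 fold change was 1.52 (SE 0.52, limma adjusted p = 0.0655; exact permutation p = 0.0857). It no longer passed without Rbpj-/- animal 1 (log2 fold change 0.99, adjusted p = 0.203), without Rbpj+/+ animal 1 (1.19, adjusted p = 0.123) or without Rbpj+/+ animal 4 (1.42, adjusted p = 0.128). Without both arrays of brighter dim probes it was 1.28 and passed (adjusted p = 0.0849), and with normexp background correction it was 0.10 (adjusted p = 0.727). With the percentile of probes detected on all arrays it was 1.60 (adjusted p = 0.109). The differences of Id4 from Id1, Id2 and Id3 moved by -1.73, -2.39 and -1.59, with exact permutation p-values of 0.137, 0.137 and 0.156 after adjustment, and rest on the same dim readings.

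**Figure D3:**
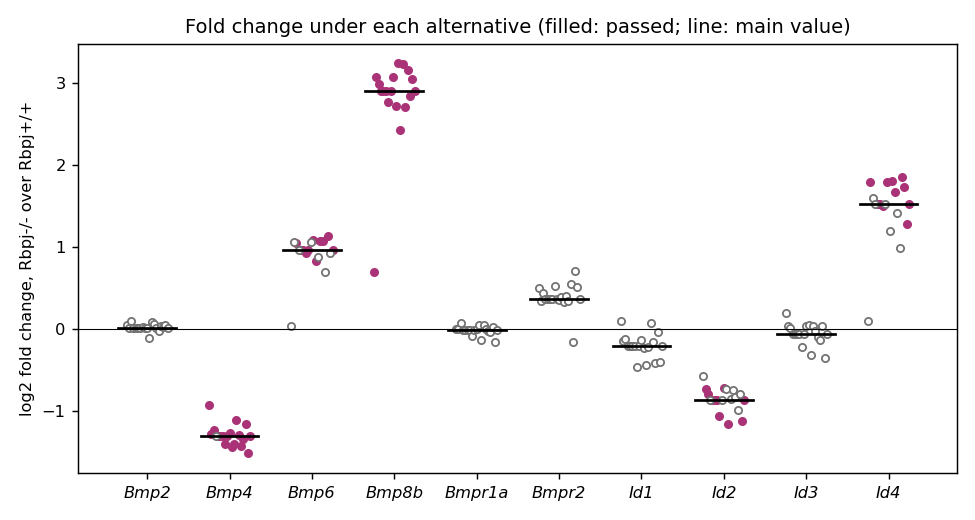
Log2 fold change of the 10 genes (y axis, Rbpj-/- over Rbpj+/+) under each alternative processing or with animals left out. Points are alternatives, filled where the gene passed, and lines are the values reported. Bmp8b passed under each alternative that tested it, Bmp4 under all but the one without a filter on dim probes, and Id2, Id4 and Bmp6 lost the call under several. Bmp6, Bmp8b and Id4 entered the test through the group in which they were higher. Passing again under the same filter adds no support for their rise.

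Promoter windows of 300 bases (250 before the start of the transcript and 50 after) were read from RefSeq for 8 of the 10 genes, all but Bmp2 and Id1, on the build GRCm38.p6. They were searched on both strands for TGGGAA, the core of sites bound by RBPJ, and for GGCGCC, a GC-rich element that Smad1 and Smad5 can bind. The motifs cannot overlap each other. TGGGAA was found in 3 of the 8 windows (Bmpr1a, Bmpr2 and Id4) and in 25.6% of all 32851 windows. GGCGCC was found in 4 of the 8 (Bmpr1a, Bmpr2, Id2 and Id4) and in 11.9% of all windows. The 8 windows are 59.3% to 79.3% G or C, and windows of like base composition were not compared. The Id windows are shown because Id2 fell, Id4 rose and Id3 did not pass. Capitals mark both motifs, TTCCCA being TGGGAA on the other strand.
Id2, chr12:25096043-25096342 (- strand): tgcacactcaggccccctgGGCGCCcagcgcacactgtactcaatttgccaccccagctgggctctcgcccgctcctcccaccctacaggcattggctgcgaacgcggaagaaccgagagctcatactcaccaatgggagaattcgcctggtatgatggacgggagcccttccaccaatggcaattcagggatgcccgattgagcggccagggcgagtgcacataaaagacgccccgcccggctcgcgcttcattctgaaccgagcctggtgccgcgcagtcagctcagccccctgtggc
Id4, chr13:48260866-48261165 (+ strand): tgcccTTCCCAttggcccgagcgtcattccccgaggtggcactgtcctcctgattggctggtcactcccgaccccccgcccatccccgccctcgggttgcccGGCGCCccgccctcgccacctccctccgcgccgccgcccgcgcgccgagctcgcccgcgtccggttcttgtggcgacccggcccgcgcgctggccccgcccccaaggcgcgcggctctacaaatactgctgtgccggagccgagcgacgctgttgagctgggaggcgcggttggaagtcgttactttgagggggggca
Id3, chr4:136143572-136143871 (+ strand): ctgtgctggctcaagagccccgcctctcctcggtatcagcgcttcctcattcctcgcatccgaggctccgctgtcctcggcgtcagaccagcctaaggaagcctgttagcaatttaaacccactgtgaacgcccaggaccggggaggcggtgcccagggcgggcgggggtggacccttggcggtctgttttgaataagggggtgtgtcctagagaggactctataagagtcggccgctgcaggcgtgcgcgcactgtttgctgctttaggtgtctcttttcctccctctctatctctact
The Id2 window holds GGCGCC, which starts at position -231 from the transcript start. The Id4 window holds it at position -148 and TGGGAA at position -245. The Id3 window holds neither. Of the 4 genes with GGCGCC, Id2 fell, Id4 rose, and Bmpr1a and Bmpr2 did not pass. A match of letters is no measured binding.

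Of 46 other genes of the BMP pathway, 34 were tested, of which 7 rose and 6 fell, with a median log2 fold change of 0.05. Over all 18755 genes tested, 14.6% rose and 19.5% fell, and the counts per role below stand against these shares. Without both arrays of brighter dim probes, 4 of the pathway genes rose and 7 fell. With dim probes tested as well, 2 rose (Bmper and Fstl1) and 1 fell (Smad9), and the other calls below were lost. Of 10 other ligand genes, 4 were tested and 0 passed with limma, and 0 had an unadjusted p below 0.05. With normexp background correction Bmp8a (log2 fold change -0.50, adjusted p = 0.0438) and Gdf2, the gene of BMP9 (0.44, adjusted p = 0.0384), passed. Bmp8a also passed after quantile normalization (-0.72, adjusted p = 0.0887) and in the authors' matrix (-0.71, adjusted p = 0.0881). Gdf2 was between 2.31 and 2.83 in Rbpj+/+ and between 2.71 and 2.86 in Rbpj-/- liver.

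**Figure D4:**
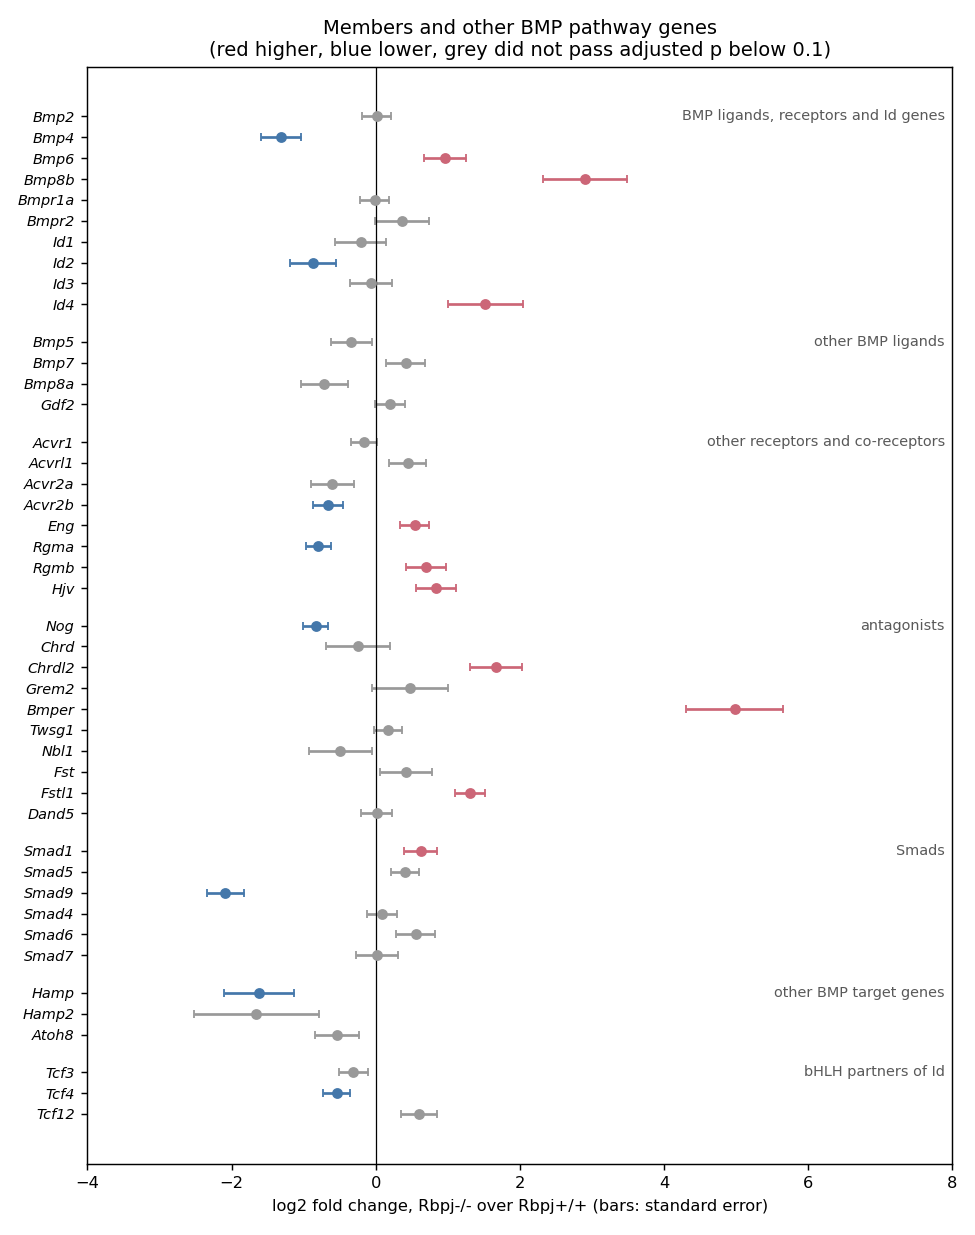
Log2 fold change ± SE (x axis, Rbpj-/- over Rbpj+/+; 4 and 3 animals) of the 10 genes and of the tested genes of the pathway, by role. Red genes rose and blue genes fell at an adjusted p below 0.1. Bmper has the largest rise and Smad9 the largest fall among the genes plotted.

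Antagonists bind BMPs outside the cell, and 3 of the 10 tested rose and 1 fell. Bmper, whose product binds BMPs and can hinder or help them, was -2.57, -4.05, -3.90 and -2.87 in the Rbpj+/+ animals, of which 1 was well above background, and 2.51, 2.54 and -0.15 in the Rbpj-/- animals. Taking the readings below background as measured, the log2 fold change was 4.98 (SE 0.67, limma adjusted p = 0.00213), and it was 2.24 with normexp background correction (adjusted p = 0.00659). Bmper and Chrdl2 entered the test through the Rbpj-/- group. Every Rbpj-/- animal was above every Rbpj+/+ animal, and Rbpj-/- animal 3 rose least. Fstl1, a follistatin-like secreted protein, rose by 1.31 (adjusted p = 0.00428). Chrdl2, a chordin-like protein, was not well above background in any Rbpj+/+ animal and was at least 2.70-fold higher in Rbpj-/- liver (adjusted p = 0.0132). This bound sets the Rbpj-/- mean against the lowest signal detected on each Rbpj+/+ array, or the probe's own where that was higher. It holds on the scale used here: with normexp background correction the log2 fold change of Chrdl2 was 0.10 and did not pass (adjusted p = 0.623). Nog, the gene of noggin, which blocks Bmp2 and Bmp4, fell by 0.83 (adjusted p = 0.0124), and by 0.48 with normexp background correction (adjusted p = 0.0194). Fstl1 and Nog passed with each animal left out. Bmper and Chrdl2 did so too, but they were selected through the group in which they were higher, so this adds no support for their rise. With dim probes tested as well, the adjusted p of Chrdl2 was 0.113 and that of Nog 0.117.

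Of the 8 tested receptors and co-receptors, 3 rose and 2 fell. Rgma, a repulsive guidance molecule that acts as a BMP co-receptor, was 1.94 to 2.20 in Rbpj+/+ and 1.17 to 1.38 in Rbpj-/- liver (log2 fold change -0.80, limma adjusted p = 0.0148), and passed with each animal left out. It was -0.48 with normexp background correction and passed (adjusted p = 0.0242), and with dim probes tested as well its adjusted p was 0.130. Acvr2b, a type II receptor, fell by 0.66 (adjusted p = 0.0522), and its adjusted p was 0.133 without Rbpj+/+ animal 3 and 0.191 without Rbpj-/- animal 2, and 0.108 with normexp background correction (log2 fold change -0.32). Hjv (Hfe2 on the array), the gene of hemojuvelin, the co-receptor of Bmp6 in hepatocytes, rose by 0.84 (adjusted p = 0.0599). Its adjusted p was 0.143 without Rbpj+/+ animal 3, and 0.142 and 0.181 without Rbpj-/- animals 2 and 3. Eng, the endothelial co-receptor endoglin, rose by 0.54 (adjusted p = 0.0824), and did not pass without any 1 animal other than Rbpj+/+ animal 2 (adjusted p from 0.126 to 0.240). Rgmb rose by 0.70 (adjusted p = 0.0979), did not pass without any 1 animal other than Rbpj+/+ animal 4 (adjusted p from 0.106 to 0.272), and was -0.07 with normexp background correction. It was well above background in all animals of the Rbpj-/- group only, and entered the test through that group. Another Rgmb probe was not well above background on any array.

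Among the 6 Smad genes, Smad9 fell and Smad1 rose. Smad9 was 0.02, -0.37, -0.44 and -0.28 in the Rbpj+/+ animals and -2.65, -1.77 and -2.65 in the Rbpj-/- animals. The groups were far apart, with a 4.24-fold fall (log2 fold change -2.08, SE 0.26, limma adjusted p = 0.00171), which passed with each animal left out. The log2 fold change of Smad9 was -0.99 with normexp background correction, and passed. Smad1, another Smad activated by BMP receptors, rose by 0.62 (adjusted p = 0.0813), and its adjusted p was between 0.128 and 0.202 without Rbpj+/+ animal 3 or 4 or any 1 Rbpj-/- animal. Another Smad1 probe, detected on all 7 arrays, gave 0.26 (adjusted p = 0.480), and the mean of the gene's tested probes 0.44 (adjusted p = 0.131), so the rise of Smad1 rests on 1 probe. Smad1 also did not pass with normexp (adjusted p = 0.117) or quantile normalization (adjusted p = 0.189). Smad5, of the same kind, had a log2 fold change of 0.41 (adjusted p = 0.152) by its brightest probe and of -0.23 (adjusted p = 0.565) by another. The brightest probe passed with normexp (0.52, adjusted p = 0.0409) and with the percentile of probes detected on all arrays (0.49, adjusted p = 0.0610). It also passed with quantile normalization (adjusted p = 0.0772), with array weights (adjusted p = 0.0803) and in the authors' matrix (adjusted p = 0.0774). The shared Smad4 and the inhibitory Smad6 and Smad7 did not pass, though Smad6 did with normexp (0.41, adjusted p = 0.0999).

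Of the other BMP target genes, Hamp was 7.76, 7.22, 8.36 and 8.78 in the Rbpj+/+ animals and 7.12, 6.77 and 5.33 in the Rbpj-/- animals. All 3 Rbpj-/- animals lay below the Rbpj+/+ animals, by little for animal 1. The log2 fold change was -1.62 (SE 0.49, limma adjusted p = 0.0426). The adjusted p was 0.108 without Rbpj+/+ animal 3 and 0.121 without Rbpj-/- animal 3, and 0.110 after quantile normalization (log2 fold change -1.34). Hamp2, whose transcript is close to that of Hamp, so that the probes may share signal, and Atoh8 did not pass (log2 fold change -1.66 and -0.53, adjusted p = 0.194 and 0.231). Rbpj-/- animal 3 had the highest Hamp2 level of its group (6.70, against 3.40 and 3.37) and the lowest Hamp level, and without it Hamp2 was lower and passed (log2 fold change -2.76, adjusted p = 0.0276). Hamp, Id2 and Smad9 were lower, Bmp6 and Id4 were higher, and Id1 and Id3 did not pass. The calls of Hamp, Bmp6, Id2 and Id4 were lost under several alternatives, and a link between these genes was not tested.

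Of the basic helix-loop-helix partners of Id proteins, Tcf4 fell by 0.54 (limma adjusted p = 0.0675), while Tcf3 and Tcf12 did not pass (log2 fold change -0.31 and 0.60). Tcf12 passed with normexp (0.52, adjusted p = 0.0461) and with the percentile of probes detected on all arrays (0.68, adjusted p = 0.0465). It also passed with detection on all 7 arrays, with limma-trend, with array weights and without Rbpj+/+ animal 1 (adjusted p from 0.0661 to 0.0884). The other tested probe of Tcf12 gave -0.27 (adjusted p = 0.429). The adjusted p of Tcf4 was between 0.107 and 0.179 without Rbpj+/+ animal 3 or 4 or any 1 Rbpj-/- animal.

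Markers of several liver cell types also differed between the genotypes. Over all genes tested, 14.6% were higher and 19.5% lower in Rbpj-/- liver. The mean level of the macrophage markers was 2.92 to 3.29 in Rbpj+/+ and 4.41 to 4.70 in Rbpj-/- liver, with 5 of 7 higher. Stellate cell and fibroblast markers were at 0.84 to 1.22 and 1.56 to 2.22, with 5 of 9 higher. Sinusoidal endothelial markers, of the cells that make Bmp2 and Bmp6, were at 1.89 to 2.47 and 2.50 to 2.90, with 4 of 10 higher and 1, Kdr, lower. Hepatocyte markers were at 8.29 to 8.73 and 7.94 to 8.17, with 5 of 8 lower, albumin among them (log2 fold change -0.78). Neutrophil markers were higher in 3 of 5 (-1.57 to 0.59 against 0.99 to 1.96) and proliferation markers in 5 of 5 (-1.49 to 0.55 against 1.94 to 2.66). B cell markers were lower in 4 of 4 (-1.35 to -0.34 against -3.82 to -2.13), T cell markers in 2 of 4 (-1.63 to -0.18 against -2.34 to -1.06) and erythroid markers in 1 of 4 (3.86 to 5.39 against 2.75 to 4.87). Cholangiocyte markers were higher in 2 of 6 (-1.48 to -0.76 against -1.34 to -0.21), and Epcam was not tested. The part of these shifts in the changes of the BMP and Id genes was not tested.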

How the data were processed

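RNA of 7 whole livers was hybridised to Agilent mouse 60-mer arrays, 1 per animal, on 1 slide. The authors deposited background-subtracted intensity values of single spots, made with Agilent Feature Extraction 10.7.3.1 per the labels, and a series matrix of log2 values that the authors made from the same arrays.

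Control spots and spots marked as outliers were left out (146 probe values; no spot was saturated). The log2 values of a probe's spots were averaged and shifted by the array's 75th percentile. Testing required a probe to be detected (well above background) in every animal of 1 genotype or both, which left 24548 probes, and the brightest of them stood for a gene. Arrays detected 41.1% to 64.9% of probes, and having few arrays limits precision. The test was that of limma 3.58.1 (R 4.3.3), in place of the study's shrinkage t, with Benjamini-Hochberg adjustment over all tested probes and a threshold of 0.1. Single values and differences between genes were tested by exact permutation, two-sided, over the 35 divisions of the animals. The 95% intervals used the pooled spread of the animals. Names were updated through RefSeq by accession (28331 probes), symbol (2209) or synonym (174); 24967 kept the array's name. Probe coordinates are mm9 as in the array's design, with no exon annotation used. The steps were tested on simulated data. Tables were made with pandas 2.3.3 in Python 3.11.15, and figures with matplotlib 3.10.9.

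The 10 genes, the pathway roles and the marker lists were chosen with earlier results of these data known. Named were all 10 genes, Rbpj, the pathway genes that passed, the 3 genes closest in pattern to the largest rise and fall, and 1 or 2 marker genes; Bmp8a, Gdf2 and the other pathway genes that did not pass were named after their values were seen. The alternatives were normexp (offset 50), quantile normalization, no filter, detection on all 7 arrays, a percentile taken over the latter probes, outlier spots kept, limma-trend, array weights, a threshold of 0.05, exact permutation, the series matrix, the mean of a gene's probes, and each animal left out. Leaving out both arrays with brighter dim probes was chosen after seeing the data.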

Additional observations from a re-analysis of the deposited data

Results flagged for a closer look

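Smad5 in Rbpj+/+ animal 1 (2.88) stood apart from the other 3 animals of its group (2.43 to 2.51), with a gap of 0.839 of the group's range. It was the 1 flagged among the 45 genes checked in the 4 Rbpj+/+ animals, and chance marks about 1 in 20 such groups.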

How the results depend on the processing

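Of 187 results for single probes of the 10 genes under the alternatives, 163 kept their side of the threshold and 24 no longer passed. Among the genes that passed in the main test, 0 results reversed direction. Genes that did not pass were not held to a direction, and some changed sign. With normexp background correction, Id1 had a log2 fold change of 0.09 and Id3 of 0.20. Of the 10 genes, 3 rose and 2 fell. With normexp background correction 1 rose and 1 fell, and without a filter on dim probes 1 rose and 0 fell. With detection required on all 7 arrays 0 rose, since Bmp6, Bmp8b and Id4 were then not tested. At a threshold of 0.05, and by exact permutation, 1 fell. With 1 animal left out, 2 to 3 rose and 1 to 2 fell.

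Of the other pathway genes, 7 rose and 6 fell. Without a filter 2 rose and 1 fell, and at a threshold of 0.05 3 rose. With array weights 10 fell. Without both arrays with brighter dim probes 4 rose. With 1 animal left out, 3 to 6 rose and 3 to 7 fell. Rgmb turned to -0.0729 with normexp background correction, and the cause was not tested. Of all genes, 6406 passed, 1639 without a filter (with more probes tested), and 3716 (without Rbpj-/- animal 2) to 7101 with 1 animal left out. Signal near background limits Bmp6, Bmp8b and Id4. No paired analysis was possible because the animals of both genotypes share no numbers in the labels.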
